A study of Mus musculus with 24 samples.

Results

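The 6 genes described here, Sdc4, Bcar3, Nedd9, Nid1, Bst1 and Plekha2, encode adhesion and signalling proteins that Pax5 is known to activate in B-lineage cells. They were chosen by name, and each was read from the probe set whose platform annotation gave its symbol alone. Of the 6, 5 had such a probe set (1 each) among 19938 named genes, and all 5 were among the 15647 genes tested. No probe set was annotated with Nedd9, which is therefore not analysed here. Messenger RNA was measured on 24 arrays, each hybridised with 1 sample, of bone marrow from mice that had all received 2 Gy of ionizing radiation. Leukemic arrays came from 10 Pax5+/- mice, which carry 1 intact Pax5 allele, and from 4 wild-type mice. Their sample titles give B cells of the marrow, whereas the design text speaks of tumor-bearing marrow. Preleukemic arrays hold pro-B and pre-B cells from 7 Pax5+/- and from 3 wild-type mice. Since 3 weeks is the label of every sample, leukemic ones included, their own sampling time is unknown, and no source used here gives the ages. The labelled cell type thus differs between the stages, and no source used here says how the cells were isolated. In such bulk samples fewer cells of a type and less RNA per cell cannot be told apart.

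Pax5 encodes a paired-domain transcription factor needed for commitment to the B lineage. It switches on B-cell genes and switches off genes of other lineages. Part of its activated program serves contact with the marrow: B-cell progenitors grow on stromal cells and matrix, and integrins, heparan sulfate proteoglycans and matrix glycoproteins mediate that contact. Sdc4 encodes syndecan-4, a cell-surface heparan sulfate proteoglycan that acts with integrins in focal adhesions. Nid1 encodes nidogen-1, a secreted glycoprotein that links laminin and collagen IV networks in basement membranes. Bcar3 encodes an SH2-domain adaptor that binds Cas scaffold proteins, and Nedd9 encodes the Cas scaffold of lymphocytes, which is phosphorylated after integrin or antigen receptor engagement. Bst1 encodes CD157, a membrane-anchored ectoenzyme that consumes NAD and is found on B-cell progenitors, myeloid cells and stromal cells. Plekha2 encodes TAPP2, an adaptor whose pleckstrin homology domain binds the lipid PI(3,4)P2 made downstream of PI3-kinase.

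Among the 5 measured genes, Bcar3, Bst1 and Plekha2 fell from the preleukemic to the leukemic stage in both genotypes. Nid1 rose in both, and Sdc4 did not pass the test in either. Bst1 had the largest fold difference, 4.70-fold lower in Pax5+/- and 6.03-fold lower in wild-type leukemic samples. Plekha2 was 3.40-fold and 3.28-fold lower, Bcar3 1.73-fold and 1.65-fold lower, and Nid1 2.09-fold and 2.29-fold higher. None of the 5 differed detectably between the genotypes at either stage.

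The promoters of Bcar3 and Nid1, which moved, and of Sdc4, which did not pass, are shown because Pax5 acts through DNA binding. RefSeq promoters were available for 4 of the 6 genes (build GRCm38.p6), and the 250 bases before the transcription start were searched on both strands. Each is printed 5′ to 3′ on the strand of its gene. The Sdc4 window lies at chr2:164443189-164443438 on the minus strand, the first Bcar3 window at chr3:122419507-122419756 on the plus strand and the Nid1 window at chr13:13437352-13437601 on the plus strand. Capitals mark a match to CCCNNGGG, paired half-sites of Ebf1, the factor that acts with Pax5 in B-lineage specification.
Sdc4: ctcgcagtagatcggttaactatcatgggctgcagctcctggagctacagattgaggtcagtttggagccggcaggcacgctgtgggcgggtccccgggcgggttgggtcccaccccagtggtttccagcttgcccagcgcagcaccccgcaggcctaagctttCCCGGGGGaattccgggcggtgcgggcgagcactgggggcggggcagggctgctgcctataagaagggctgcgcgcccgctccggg
Bcar3: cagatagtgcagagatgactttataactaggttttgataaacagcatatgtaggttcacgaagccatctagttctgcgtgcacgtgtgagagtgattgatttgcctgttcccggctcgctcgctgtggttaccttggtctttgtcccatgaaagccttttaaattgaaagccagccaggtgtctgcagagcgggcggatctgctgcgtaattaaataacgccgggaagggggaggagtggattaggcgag
Nid1: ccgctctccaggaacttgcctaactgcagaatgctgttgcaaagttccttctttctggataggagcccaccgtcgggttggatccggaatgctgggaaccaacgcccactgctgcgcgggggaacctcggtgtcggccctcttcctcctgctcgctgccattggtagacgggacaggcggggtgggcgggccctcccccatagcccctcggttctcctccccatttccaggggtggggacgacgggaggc
The letters GCGTGAC, a core of Pax5 binding sites, occurred in none of these windows, nor in the second Bcar3 window (chr3:122483319-122483568), that of Nedd9 (chr13:41359002-41359251) or that of Pax5 itself (chr4:44710695-44710944). They occurred in 1.78% of 32851 promoter windows of this length. CCCNNGGG occurred in the Sdc4 window alone, 86 to 79 bases before the start and with no overlap with the other motif, and in 11.8% of all windows. These are counts of letters in 250 bases and carry no statement on binding. No promoter was available for Bst1 and Plekha2, the members with the largest stage differences, so the search does not cover them.

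Pax5 itself gives the scale for the genes it activates. In preleukemic Pax5+/- arrays its log2 signal ran from 11.34 to 11.59 with a median of 11.40, and in leukemic Pax5+/- arrays from 6.87 to 11.37 with a median of 8.34. Preleukemic wild-type arrays had 11.47, 12.00 and 12.16, and leukemic wild-type arrays had 10.74, 6.34, 10.67 and 10.03. Leukemic Pax5+/- array 2 thus kept a preleukemic level, and leukemic wild-type array 2 had the lowest Pax5 value of all arrays. The wild-type stage difference of Pax5 passed the test (-2.43 ± 0.84 (SE), limma adjusted p = 0.0256) but not without leukemic wild-type array 2 (-1.39, limma adjusted p = 0.106) and under other settings given in the closing section.

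Other features of the arrays touch these comparisons. Array medians were 6.10 to 6.22 in leukemic and 6.23 to 6.30 in preleukemic samples, so they go with stage. Several arrays departed from their groups. Preleukemic wild-type array 1 had a mean over 15 granulocyte markers of 10.49 against 6.55 and 6.63 in the other arrays of the group. Its mean over 14 mitosis genes was 9.90 against 7.86 and 7.99, and over 9 erythroid markers 8.42 against 6.70 and 6.69. Over the erythroid markers, leukemic wild-type arrays 1 and 2 had 9.57 and 9.37 against 6.79 and 7.55 in arrays 3 and 4. Over 10 T-cell markers, leukemic Pax5+/- arrays 1 and 4 had 7.36 and 7.18 against 6.12 to 6.44 in their group. Leukemic wild-type array 2 had a mean over 9 NK-cell markers of 9.35 against 5.82 to 6.27 in its group. Its mean over 14 pro-B and pre-B markers was 9.28 against 10.65 to 10.90. Pax5 is 1 of these 14 markers, so this mean and its stage difference below partly restate the Pax5 values. Without leukemic array 2 the same 4 members, Bcar3, Bst1, Nid1 and Plekha2, were called in the wild type, as were 5325 of 15647 genes. Without preleukemic array 1 the wild-type stage differences were -0.76 for Bcar3, -2.82 for Bst1, 1.13 for Nid1 and -1.87 for Plekha2, all still called (limma adjusted p from 3.65e-05 to 0.0115). That fit called 7047 of 15647 genes. The mean over pro-B and pre-B markers was 9.28 to 11.12 in leukemic and 11.61 to 11.96 in preleukemic arrays, so it was lower in leukemic arrays with no overlap between the stages. Y-linked genes were high in 3 of 3 preleukemic and in 0 of 4 leukemic wild-type arrays, whereas Pax5+/- mice of both stages included high and low arrays. Sex therefore cannot be separated from stage inside the wild-type comparison alone. With sex as a term across all 24 arrays, 4 members were again called in each genotype. In that fit 9796 of 15647 genes were called in Pax5+/- and 5087 in the wild type. Sex did not vary within either wild-type group, so the Pax5+/- mice alone set that term.

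Plekha2 was lower in every leukemic array than in any preleukemic array. In Pax5+/- mice its log2 signal ran from 11.82 to 12.23 (median 12.08) before leukemia and from 9.61 to 11.12 (median 10.23) in leukemia. In wild-type mice it was 11.68, 12.22 and 12.08 before leukemia and 10.65, 10.23, 10.16 and 10.07 in leukemia. The stages did not overlap in either genotype, where 22.2% of all genes tested in Pax5+/- and 39.3% in the wild type did not overlap. The log2 difference was -1.76 ± 0.17 (SE, n = 10 and 7) in Pax5+/- (limma adjusted p = 1.13e-08). It was -1.72 ± 0.26 (SE, n = 4 and 3) in the wild type (limma adjusted p = 2.76e-05). The range of 1.51 among Pax5+/- leukemias was wider than that of 0.41 among their preleukemic samples, with arrays 3 and 2 highest at 11.12 and 10.90.

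Bst1 fell by the largest amount but not in every leukemia. The log2 signal in Pax5+/- mice ran from 10.05 to 10.58 (median 10.24) before leukemia and from 5.95 to 10.64 (median 7.75) in leukemia. In wild-type mice it was 9.59, 10.33 and 10.24 before leukemia and 7.83, 7.09, 6.90 and 8.03 in leukemia. Of 10 Pax5+/- leukemias, 8 lay below the preleukemic range, array 3 (10.17) lay within it and array 7 (10.64) lay above it. The 4 wild-type leukemias all lay below theirs, where the stages did not overlap for 39.3% of all genes tested. The log2 difference was -2.23 ± 0.48 (SE, n = 10 and 7) in Pax5+/- (limma adjusted p = 0.000425) and -2.59 ± 0.75 (SE, n = 4 and 3) in the wild type (limma adjusted p = 0.00887). Without preleukemic wild-type array 1, the lowest of its group, the wild-type difference was -2.82 (limma adjusted p = 0.0115). Genes called lower by at least 2-fold made up 2.99% of genes tested in Pax5+/- and 3.58% in the wild type, and Bst1 and Plekha2 were among them in both.

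Bcar3 was lower by a smaller and more even amount. Its log2 signal in Pax5+/- mice ran from 6.40 to 7.18 (median 6.59) before leukemia and from 5.70 to 6.21 (median 5.90) in leukemia. In wild-type mice it was 6.52, 6.64 and 6.62 before leukemia and 5.91, 5.78, 5.88 and 5.92 in leukemia. No leukemic array of either genotype reached its preleukemic range, and the highest leukemic value, 6.21, was in Pax5+/- array 2. Stages did not overlap for 22.2% of all genes tested in Pax5+/- and for 39.3% in the wild type. The log2 difference was -0.79 ± 0.09 (SE, n = 10 and 7) in Pax5+/- (limma adjusted p = 1.43e-07) and -0.72 ± 0.14 (SE, n = 4 and 3) in the wild type (limma adjusted p = 0.000316). Its leukemic values lay close above the dim level of 5.18 to 5.35, the 30th percentile of each array, where log2 signals compress differences.

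Sdc4 varied among Pax5+/- leukemias (SD 0.87) more than its mean moved, which was not so in the wild type (SD 0.72). In Pax5+/- mice its log2 signal ran from 9.67 to 10.14 (median 9.75) before leukemia and from 8.62 to 11.14 (median 9.10) in leukemia. In wild-type mice it was 9.57, 10.13 and 9.92 before leukemia and 9.58, 8.10, 8.38 and 9.35 in leukemia. Of 10 Pax5+/- leukemias, 7 lay below the preleukemic range, array 5 (9.93) lay within it, and arrays 2 (10.61) and 3 (11.14) lay above it. The log2 difference was -0.41 ± 0.31 (SE, n = 10 and 7) in Pax5+/-, with a 95% interval from -1.05 to 0.22 (limma adjusted p = 0.244). Without array 3 alone it was -0.61 and passed (limma adjusted p = 0.0435). In the wild type it was -1.02 ± 0.48 (SE, n = 4 and 3), with an interval from -2.01 to -0.03 before adjustment (limma adjusted p = 0.094). A 2-fold fall, -1 on the log2 scale, was thus within the intervals of both genotypes.

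Nid1 moved the other way. Among Pax5+/- mice its log2 signal ran from 5.35 to 5.72 (median 5.61) before leukemia and from 5.66 to 7.10 (median 6.84) in leukemia. In wild-type mice it was 5.53, 5.56 and 5.88 before leukemia and 6.44, 7.18, 6.76 and 7.02 in leukemia. Preleukemic values of both genotypes lay close above the dim level of 5.18 to 5.35, where log2 signals compress differences. Of 10 Pax5+/- leukemias, 9 lay above the preleukemic range and array 8 (5.66) lay within it. All 4 wild-type leukemias lay above theirs, where the stages did not overlap for 39.3% of all genes tested. The log2 difference was 1.07 ± 0.16 (SE, n = 10 and 7) in Pax5+/- (limma adjusted p = 6.91e-06) and 1.20 ± 0.25 (SE, n = 4 and 3) in the wild type (limma adjusted p = 0.000649).

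**Figure D1:**
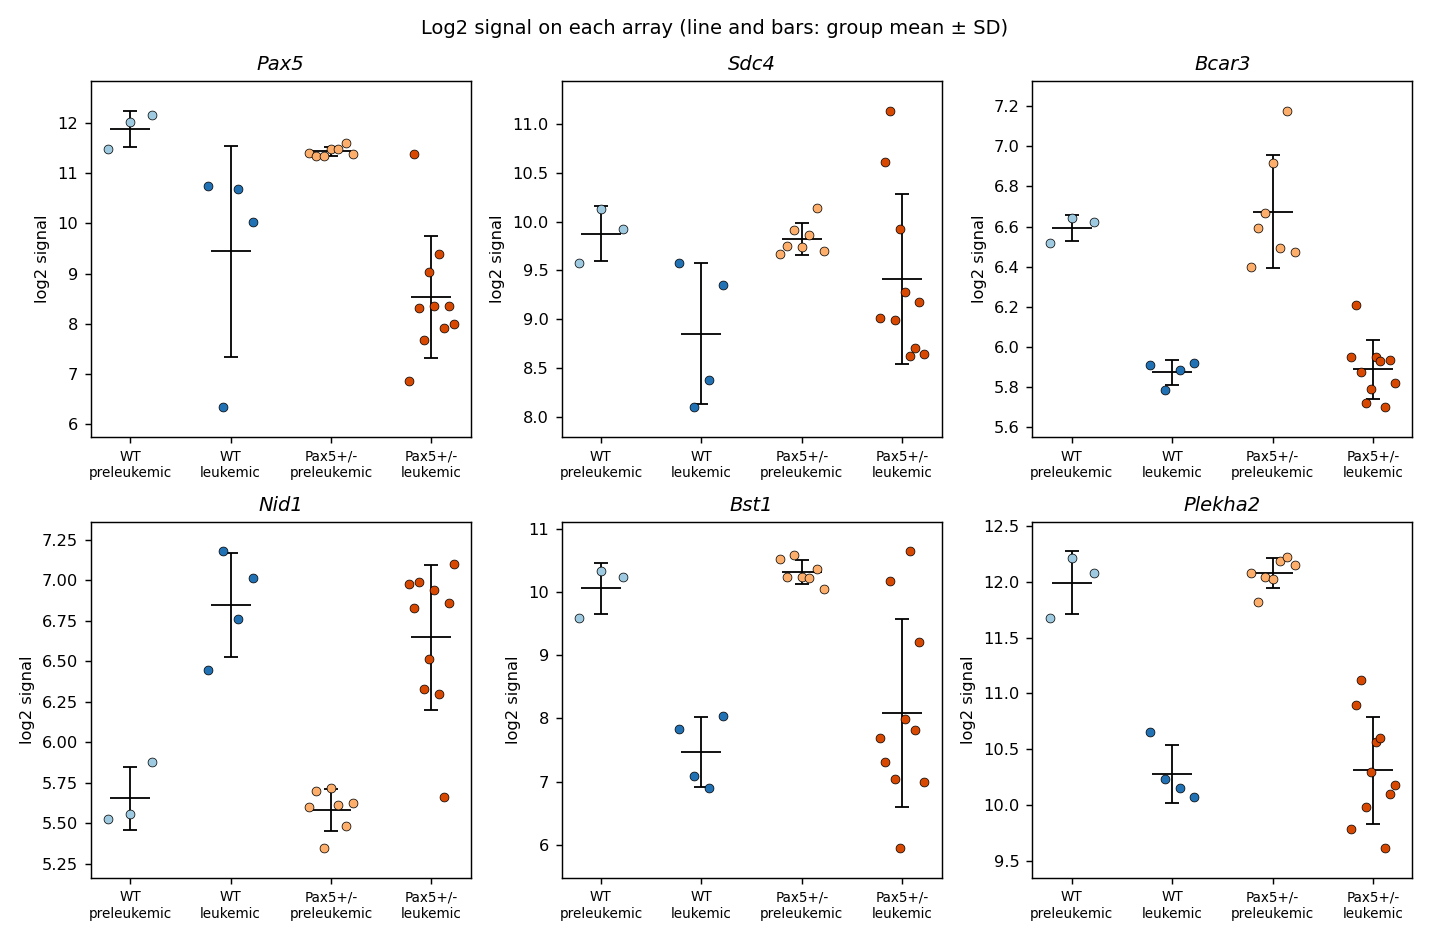
Log2 signal of Pax5 and the 5 measured genes on each array (points), by genotype and stage, with the group mean and SD (line and bars). Bcar3 and Plekha2 separate the stages in both genotypes, as do 22.2% of all genes tested in Pax5+/- and 39.3% in the wild type. Nid1 rises, and Sdc4 and Bst1 of leukemic Pax5+/- samples spread over 8.62 to 11.14 and 5.95 to 10.64.

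**Figure D2:**
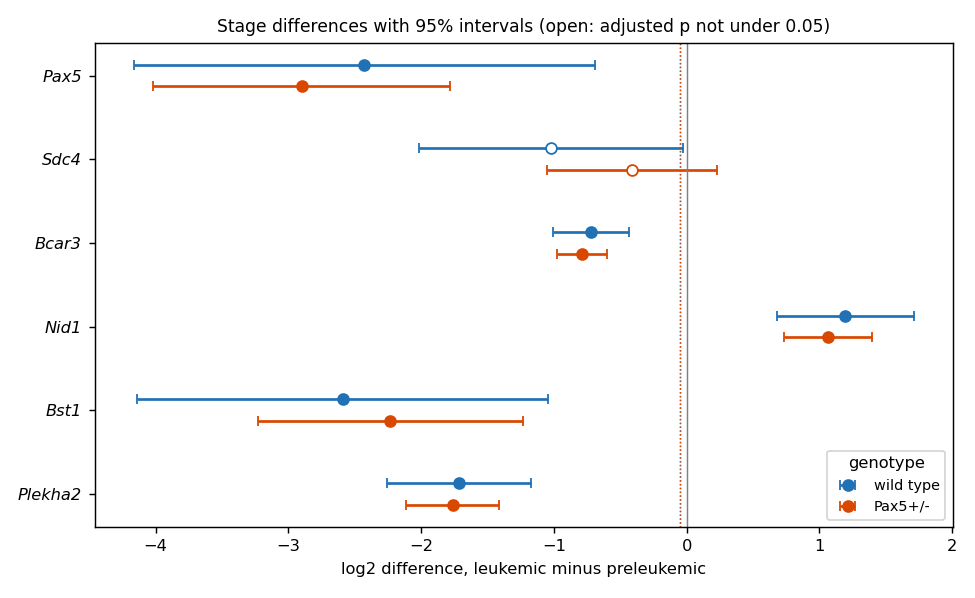
Stage differences (leukemic minus preleukemic, log2) of Pax5 and the 5 genes with 95% intervals for wild-type and Pax5+/- mice. Open points did not pass an adjusted p of 0.05, dotted lines mark the medians of all genes tested (both -0.05), and the intervals of the 2 genotypes overlap for each gene.

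The counts of members must be read against how many genes changed. In Pax5+/- mice 3 of 5 members fell and 1 rose, where 62.9% of all genes tested passed, 35.1% lower and 27.8% higher. In the wild type 3 of 5 also fell and 1 rose, where 39.1% passed, 20.4% lower and 18.7% higher. Groups did not overlap for 2 of 5 members in Pax5+/- (22.2% of all genes) and for 4 of 5 in the wild type (39.3%). The median stage difference of the members was -0.79 and -1.02, against -0.05 over all genes in both genotypes. Centring each array on the median of the genes tested moved the median of all genes by -0.20 in Pax5+/- and by -0.12 in the wild type, and changed no call or direction among the members. That centring turned the split of all called genes in Pax5+/- from 4354 higher and 5485 lower to 2827 higher and 8930 lower, and centring on the array median turned it to 5066 and 3502.

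The members also differed in how widely leukemias spread. The SD over Pax5+/- leukemias, divided by the SD over preleukemic Pax5+/- samples, was 7.96 for Bst1, 5.32 for Sdc4, 3.55 for Plekha2 and 3.45 for Nid1. It was 0.52 for Bcar3, and the median over all genes tested was 1.30. In the wild type the ratio was 2.56 for Sdc4, 1.65 for Nid1, 1.37 for Bst1, 0.94 for Bcar3 and 0.92 for Plekha2. These ratios are descriptions with no test. Leukemic Bcar3 and preleukemic Nid1 signals lay close above the dim level, where differences are compressed. The ratio can therefore be too low for Bcar3 and too high for Nid1.

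The comparison of the genotypes asked whether loss of 1 Pax5 allele changed these genes, but sex was not balanced in it. Y-linked genes were high in 3 of 3 wild-type and 4 of 7 Pax5+/- preleukemic arrays. Among leukemic arrays they were high in 0 of 4 wild-type and 5 of 10 Pax5+/- ones. With sex as a term, no member was called at either stage, where 103 preleukemic and 3 leukemic calls were made over 15647 genes. In preleukemic samples, Pax5+/- minus wild type was 0.08 for Bcar3, 0.26 for Bst1, -0.07 for Nid1, 0.08 for Plekha2 and -0.05 for Sdc4 (limma adjusted p from 0.949 to 0.998). Their 95% intervals were narrowest for Bcar3, from -0.18 to 0.34, and widest for Bst1, from -1.14 to 1.65. In leukemic samples the differences were 0.01 for Bcar3, 0.62 for Bst1, -0.20 for Nid1, 0.03 for Plekha2 and 0.56 for Sdc4 (limma adjusted p from 0.815 to 0.992). The interval for Sdc4 ran from -0.21 to 1.33 and that for Bst1 from -0.58 to 1.81. Of all genes, 0.786% were called between genotypes in preleukemic and 0.16% in leukemic samples, and none of the members was called. For 0 of 5 members in either comparison was the unadjusted limma p under 0.05, against 9.22% and 7.6% of genes. The RNA of Pax5 itself was not called between genotypes either. Its difference was -0.45 in preleukemic samples (95% interval -2.02 to 1.12, limma adjusted p = 0.96). In leukemic samples it was -0.92 (-2.26 to 0.43, limma adjusted p = 0.835).

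The stage differences were also compared between the genotypes, with the same imbalance of sex. Pax5+/- minus wild type was -0.07 ± 0.16 (SE) for Bcar3, 0.36 ± 0.89 for Bst1, -0.13 ± 0.29 for Nid1, -0.05 ± 0.31 for Plekha2 and 0.61 ± 0.57 for Sdc4. No member was called (limma adjusted p from 0.852 to 0.983), and 0.185% of genes were called. None of the 5 had an unadjusted limma p under 0.05, against 8.47% of genes. Intervals reached 2.20 for Bst1 and 1.79 for Sdc4, so differences of that size between genotypes were within the error. The order of group levels was therefore the same for Bcar3, Bst1 and Plekha2: both preleukemic groups above both leukemic ones, with no call between the genotypes inside a stage. For Nid1 it was the reverse. For Sdc4 the means were 9.87 and 9.83 before leukemia in wild-type and Pax5+/- mice and 9.41 and 8.85 in Pax5+/- and wild-type leukemias, and no neighbours in that order were called different.

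Covariation with Pax5 was examined over the 14 leukemias, whose Pax5 signal ran from 6.34 to 11.37. Bcar3 had the highest Pearson's r of the members and Plekha2 the highest Spearman's rho, and neither passed the adjustment. Bcar3 had r = 0.575 (permutation p = 0.0275, adjusted p = 0.744 over 15646 genes) and rho = 0.455 (permutation p = 0.103, adjusted p = 0.921). Plekha2 had r = 0.447 (permutation p = 0.109, adjusted p = 0.801) and rho = 0.490 (permutation p = 0.0773, adjusted p = 0.921). Sdc4 had r = 0.374 (permutation p = 0.189, adjusted p = 0.84) and rho = 0.411 (permutation p = 0.147, adjusted p = 0.934). Nid1 had r = -0.119 (permutation p = 0.69, adjusted p = 0.961) and rho = -0.279 (permutation p = 0.334, adjusted p = 0.951). Bst1 had r = 0.011 (permutation p = 0.971, adjusted p = 0.998) and rho = 0.130 (permutation p = 0.659, adjusted p = 0.98). No relation passed the adjustment for any gene of the array, and 6.42% of genes had an unadjusted permutation p under 0.05.

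The correlations of Bcar3, Plekha2 and Sdc4 with Pax5 were smaller without the most extreme arrays. Without leukemic Pax5+/- array 2 and leukemic wild-type array 1, the arrays farthest from the median of Pax5, r was 0.312 for Bcar3, 0.197 for Plekha2 and 0.121 for Sdc4, and it was -0.117 for Nid1 and 0.116 for Bst1. Pax5+/- array 2, which kept Pax5, had the highest Bcar3 and the second-highest Plekha2 and Sdc4 of all leukemias, but a Bst1 value of 7.32 below the Pax5+/- median. Wild-type array 2, which had the least Pax5, had the lowest Sdc4 (8.10) and the highest Nid1 (7.18). Within the 10 Pax5+/- leukemias r was 0.671 for Bcar3, 0.642 for Plekha2, 0.481 for Sdc4, 0.038 for Bst1 and 0.017 for Nid1. Spearman's rho there gave another order, with 0.709 for Plekha2 (permutation p = 0.0255 before adjustment), 0.358 for Bcar3 (permutation p = 0.313), 0.297 for Sdc4, 0.188 for Bst1 and -0.200 for Nid1. By Pearson's r no gene passed within Pax5+/- after adjustment, 9.69% of genes had an unadjusted permutation p under 0.05, and the 4 wild-type leukemias are too few for a value of their own.

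**Figure D3:**
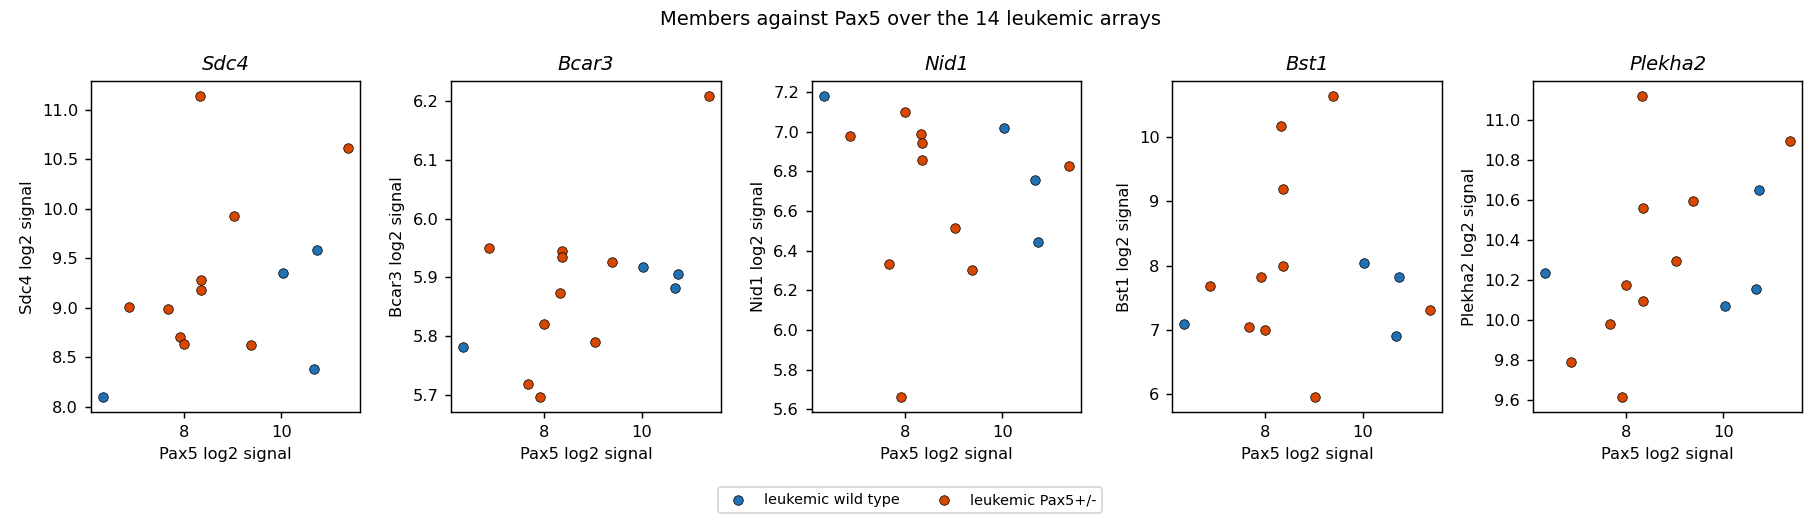
Log2 signal of each measured gene (vertical axis) against that of Pax5 (horizontal axis) over the 14 leukemic arrays, by genotype. The rise of Bcar3, Plekha2 and Sdc4 with Pax5 (r of 0.575, 0.447 and 0.374) falls to 0.312, 0.197 and 0.121 without the arrays at Pax5 values of 11.37 and 10.74, and Bst1 (r = 0.011) and Nid1 (r = -0.119) show little relation.

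Among the members themselves, Sdc4 and Plekha2 had the highest correlation over the leukemias (r = 0.683, permutation p = 0.0068, adjusted p = 0.202 over 15646 genes; rho = 0.464, permutation p = 0.098, adjusted p = 0.563). Both were highest in Pax5+/- arrays 3 and 2, and without these arrays r was 0.226. Bcar3 and Plekha2 had r = 0.536 and Bcar3 and Sdc4 r = 0.456, whereas Bst1 and Nid1 had r = -0.047. The genes whose pattern over the 14 leukemias was most like that of a member, by Pearson's r, were Zkscan17 (0.926) and Ceacam2 (0.897) for Sdc4 and Adamtsl4 (0.873) and Gba2 (0.865) for Bcar3. For Nid1 they were Il18bp (0.945) and Adgrf5 (0.928), for Bst1 Tbc1d20 (0.880) and Nrbp1 (0.869), and for Plekha2 Pappa (0.931) and Ppm1a (0.910). For Pax5 they were Pax3 (0.859) and Slc3a1 (0.816). None of these passed the adjustment over all genes (adjusted permutation p from 0.0522 to 0.806). Zkscan17, Ceacam2, Il18bp and Adgrf5 had a permutation p of 1e-05, about the smallest that 100000 permutations can give. Their adjusted p was thus limited by the number of permutations, and the test cannot decide whether they would pass.

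Nid1 moved with markers of stromal and endothelial cells, which produce basement membrane. Of 14 such markers 12 rose and 1, Pecam1, fell in each genotype. Over all genes tested 27.8% rose and 35.1% fell in Pax5+/-, and 18.7% rose and 20.4% fell in the wild type. The marker mean was 6.32 to 6.45 in preleukemic arrays, 6.91 to 8.24 in leukemic Pax5+/- arrays and 7.65 to 8.00 in leukemic wild-type arrays. The lowest leukemic value, 6.91, was in Pax5+/- array 8, which also had the lowest Nid1 of the leukemias (5.66). Over the 14 leukemias Nid1 and this mean had r = 0.883 (permutation p = 5e-05, adjusted p = 0.0027 over 54 relations) and rho = 0.895 (permutation p = 5e-05, adjusted p = 0.0027). Without the arrays farthest from the median of the marker mean, Pax5+/- arrays 8 and 1, r was 0.800, and within Pax5+/- leukemias it was 0.909. The part of these cells in the rise of Nid1 was not tested.

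**Figure D4:**
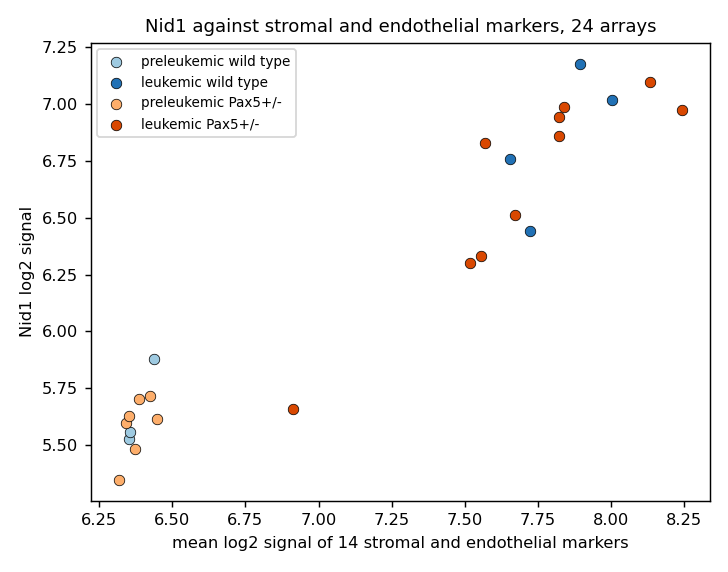
Nid1 log2 signal against the mean log2 signal of 14 stromal and endothelial markers on all 24 arrays, by group. Preleukemic arrays lie together at marker means of 6.32 to 6.45, and among leukemias Nid1 rises with the markers (r = 0.883), with Pax5+/- array 8 at 6.91 and 5.66.

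No other relation of a member or of Pax5 with a marker list passed over the leukemias after adjustment over the 54 relations. Pax5 had r = -0.683 with the T-cell mean (permutation p = 0.00704, adjusted p = 0.186). Its r was -0.592 with the NK-cell mean (permutation p = 0.0103, adjusted p = 0.186). With the pro-B and pre-B mean, taken without Pax5, it was 0.568 (permutation p = 0.03, adjusted p = 0.374). Without the 2 arrays farthest from the median of each mean, these were -0.636, -0.201 and 0.119. Bst1, which myeloid and stromal cells can also carry, had r = -0.478 with the granulocyte mean (permutation p = 0.083, adjusted p = 0.489) and r = -0.051 with the stromal mean (permutation p = 0.857). Without the 2 arrays farthest from the median of the granulocyte mean its r with that mean was -0.369. The granulocyte mean was 6.23 to 10.60 in leukemic Pax5+/- and 8.01 to 10.01 in leukemic wild-type arrays. In Pax5+/- mice 10 of 15 granulocyte and 9 of 13 tested monocyte and macrophage markers rose, and all 6 tested platelet markers rose in both genotypes. In the wild type 0 of 15 granulocyte and 7 of 13 monocyte and macrophage markers rose, with preleukemic array 1 at a granulocyte mean of 10.49 and the other preleukemic arrays at 6.55 and 6.63. In the difference of the stage differences 0 of 15 granulocyte markers were called. Mitosis genes rose in both genotypes, 14 of 14. Pro-B and pre-B markers fell in 8 of 14 in Pax5+/- and in 7 of 14 in the wild type, and none rose. Pax5 is 1 of these 14 and was called lower in both genotypes. Of all genes tested, 27.8% rose and 35.1% fell in Pax5+/-, and 18.7% rose and 20.4% fell in the wild type. The part of these marker shifts in the fall of Bcar3, Bst1 and Plekha2 was not tested.

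Relatives of the members by protein family, chosen with these results known, did not move as one. Of the syndecans, Sdc1, the syndecan of plasma cells and early B cells, was 2.50-fold lower in Pax5+/- (log2 difference -1.32 ± 0.24 (SE), limma adjusted p = 5.86e-05) and 2.20-fold lower in the wild type (limma adjusted p = 0.0175). Sdc3 was 2.64-fold higher in Pax5+/- (1.40 ± 0.27 (SE), limma adjusted p = 0.000143) and 2.59-fold higher in the wild type (limma adjusted p = 0.0131). Sdc2 and the CD157 relative Cd38 were not tested. Nid2, the other nidogen, had a log2 difference of 0.05 in Pax5+/- (limma adjusted p = 0.577) and -0.14 in the wild type (limma adjusted p = 0.391). Among Cas scaffolds, Cass4 was 4.04-fold higher in Pax5+/- (limma adjusted p = 7.79e-07) and 3.50-fold higher in the wild type (limma adjusted p = 0.00111). Bcar1, the founding Cas scaffold, had differences of 0.08 and 0.11 that did not pass (limma adjusted p = 0.174 and 0.305), but 2 of 3 other scalings gave a call in Pax5+/- and 1 turned the sign in each genotype. Plekha1, which encodes the TAPP1 adaptor, was 1.38-fold higher in Pax5+/- (limma adjusted p = 0.0311), a call that 1 of 3 other scalings ended, and was not called in the wild type. Efs was 1.14-fold lower in Pax5+/- (limma adjusted p = 0.00893), a call that 2 of 3 other scalings ended, and Sh2d3c, the other adaptor of the Bcar3 family here, was not called in either genotype.

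Genes that act with the members were described as 6 lists. Their counts, and those of the other Pax5 targets below, must be read against the shares of all genes tested. In Pax5+/- 27.8% of all genes rose and 35.1% fell, and in the wild type 18.7% rose and 20.4% fell. Of 22 tested Cas scaffold and focal adhesion genes, 10 rose and 4 fell in Pax5+/- and 7 rose and 5 fell in the wild type. Vcl, the actin linker vinculin, was 3.77-fold and 3.08-fold higher, and the kinase gene Fyn 2.60-fold and 1.84-fold higher. Elmo1, a partner of Dock exchange factors, was 2.10-fold and 1.60-fold higher, while Dock2, the exchange factor of lymphocyte migration, was 1.27-fold and 1.64-fold lower. Of 16 integrin subunits 8 rose and 1 fell in Pax5+/-, and 5 rose and 1 fell in the wild type. Itgb1, the shared beta subunit of many matrix receptors, was 2.53-fold and 1.73-fold higher, the fibronectin receptor subunit Itga5 2.51-fold and 2.02-fold higher, and Itgb5 2.37-fold and 1.81-fold higher. The median stage difference was 0.24 and 0.16 for the focal adhesion list and 0.73 and 0.23 for the integrins.

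Of 22 tested syndecan and heparan sulfate genes, 12 rose and 3 fell in Pax5+/-, and 6 rose and 5 fell in the wild type, where centring on the genes tested gave 4 and 6. Ext2, a polymerase subunit of the heparan sulfate chain, was 2.02-fold and 1.77-fold higher. Sulf2, which removes sulfate from the chain, was 5.19-fold higher in Pax5+/- and did not pass in the wild type (log2 difference 0.87, limma adjusted p = 0.112). Extl3, which starts the chain, was 1.95-fold higher in Pax5+/- and did not pass in the wild type (0.22, limma adjusted p = 0.168). Its stage difference was larger in Pax5+/- by 0.75 (limma adjusted p = 0.031), the only call of the 22 in that test, but this call was lost under centring on the genes tested (0.67, limma adjusted p = 0.103) and with sex as a term (0.73, limma adjusted p = 0.105). Of 15 basement membrane genes 7 rose and 1 fell in Pax5+/-, and 4 rose and 1 fell in the wild type. Centring on the genes tested turned the Pax5+/- split to 2 higher and 6 lower, so this list has no settled direction. Dag1, the laminin receptor dystroglycan, was 1.44-fold and 1.52-fold higher. Lama4 was at least 1.31-fold higher in Pax5+/-, where 6 of 7 preleukemic arrays lay at or below the dim level. Lama1 was 1.11-fold lower in Pax5+/-, a call lost under centring on the array median (limma adjusted p = 0.0513) and repeated quantile normalization (limma adjusted p = 0.244). Median differences were 0.46 and 0.25 for the heparan sulfate list and 0.05 and 0.03 for basement membrane genes.

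Of 11 tested genes of NAD ectoenzymes and salvage, 5 rose and 1 fell in Pax5+/-, which centring on the genes tested changed to 3 and 3, and 3 rose and none fell in the wild type. Nmrk1, a kinase that recycles nicotinamide riboside, was 2.82-fold and 6.80-fold higher. Nampt, the rate-limiting enzyme of NAD salvage, was 2.18-fold and 1.73-fold higher, the latter a call lost under centring on the genes tested (limma adjusted p = 0.066) and with sex as a term (limma adjusted p = 0.165). Nadk, which makes NADP, was 1.58-fold higher in Pax5+/- and not called in the wild type. Of 19 genes of PI(3,4)P2 signalling, 5 rose and 8 fell in Pax5+/-, which centring on the array median changed to 6 and 6, and 7 fell and none rose in the wild type. Pik3ap1, the B-cell adaptor that brings PI3-kinase to the membrane, was 3.33-fold and 5.37-fold lower. The catalytic subunit gene Pik3ca was 1.73-fold and 2.17-fold lower and the kinase gene Akt1 1.24-fold and 1.32-fold lower. The median difference was 0.14 and 0.20 for the NAD list and -0.07 and -0.11 for the PI(3,4)P2 list.

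Other Pax5 targets give a reference for the members. Of 26 other tested genes that Pax5 activates, 18 fell and 2 rose in Pax5+/-, and 20 fell and none rose in the wild type, with median differences of -1.58 and -1.78. Fcrla, an Fc receptor-like gene of B cells, was 45.2-fold and 34.9-fold lower. Siglecg, a sialic acid receptor that restrains B-cell signalling, was 11.9-fold and 23.4-fold lower, and Cplx2, a complexin, 4.76-fold and 3.81-fold lower. Of 17 tested genes that Pax5 represses, 9 rose and 3 fell in Pax5+/-, and 5 rose and 2 fell in the wild type. Flt3, the cytokine receptor of early progenitors, was 29.8-fold and 12.2-fold higher, and Emb, an adhesion molecule of the immunoglobulin family, was at least 28.2-fold higher in Pax5+/-, with 2 of 7 preleukemic arrays at or below the dim level. Cd44, the hyaluronan receptor, was 2.93-fold and 3.02-fold lower, against the direction of its list. Over the leukemias, r with Pax5 was above 0 for 4 of 5 members (median 0.374), for 16 of 26 other activated genes (median 0.110) and for 8903 of 15646 genes tested (median 0.056).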

How the data were processed

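Total RNA was extracted with Trizol and labelled with biotin, per the labels' protocols, with 1 array for each of 24 mice, called biological replicates in the labels. For 35556 probe sets the authors deposited log2 signals, and the submitters' processing notes name RMA and oligo. RMA compresses differences near background. No source used here names versions, batches or a genome build.

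The platform table named 21789 probe sets with 1 symbol, 1621 with several and did not list 12146. Of 19938 genes, 999 had several probe sets and took the one with the highest mean. A gene was tested if it reached the array's 30th percentile, the dim level (5.18 to 5.35), on 3 or more arrays. There were 15647 such genes. A model of the 4 group means over the 24 arrays was fitted in limma 3.58.1 (lmFit, contrasts.fit, eBayes; R 4.3.3), and two-sided p-values were adjusted by Benjamini-Hochberg over all genes tested, with calls at an adjusted p under 0.05. Correlations used 100000 two-sided permutations, so no permutation p could lie below about 1e-05. Arrays of a lower group at or below the dim level were set to it, and the fold became a lower bound. The script was tested on simulated arrays.

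The members, lists, tests and alternatives were chosen with earlier results of these data known. The text names Pax5, the members, of each related list up to 3 called genes with the smallest p in the Pax5+/- stage comparison and, where different, 1 in the wild-type one, and for each member the 2 genes with the highest r to it over the 14 leukemias, leaving out small RNAs, predicted genes and segments of antigen receptors. The 2 genes most like Pax5, Pecam1 and relatives of the members by family were added after their values were seen. Same-numbered arrays are different mice and did not deviate together (mean r = -0.03 over 24 pairs, 4 of them above 0.1). These pairs include ones between genotypes, so the mean does not single out pairs between stages. The highest correlation between any arrays was 0.994. Alternatives were other variance models, filters, scalings, probe set means, the replicate block, sex as a term and leaving out each array.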

Additional observations from a re-analysis of the deposited data

Results flagged for a closer look

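Dixon's test at the 95% level was applied to Pax5 and the 5 measured genes in groups of 4 to 10 arrays, 18 groups in all, of which 2 held an array that stood apart, where chance marks about 1 in 20 groups. Pax5 in leukemic wild-type replicate 2 was 6.34, against 10.03 to 10.74 in the other 3 arrays (gap over range 0.838, limit 0.829). Bcar3 in leukemic Pax5+/- replicate 2 was 6.21, against 5.70 to 5.95 in the other 9 arrays (gap over range 0.505, limit 0.466). The latter array also kept a Pax5 value of 11.37. Groups of 3 arrays were not examined.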

How the results depend on the processing

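Over the alternatives run, 4 to 5 of 5 members were called between stages in Pax5+/- and 4 in the wild type, and 0 were called between genotypes, in the difference of the stage differences or against Pax5. The fifth call was Sdc4 without leukemic Pax5+/- replicate 3 (-0.61, limma adjusted p = 0.0435). Over all genes, 7790 to 11757 were called between stages in Pax5+/- and 4263 to 7955 in the wild type, of 11682 to 19938 tested. With the replicate number as a block, 4 members were called in each stage comparison and 0 elsewhere. That fit called 8727 of 15647 genes between stages in Pax5+/- and 5403 in the wild type. The block changed 1 call, that of Pax5 in the wild type (-2.40, limma adjusted p = 0.0976). That call was also lost when only the compared groups were fitted (limma adjusted p = 0.115), with sex as a term (-1.87, limma adjusted p = 0.153) and without leukemic wild-type replicate 2 (-1.39), preleukemic wild-type replicate 2 (-2.37, limma adjusted p = 0.0752) or replicate 3 (-2.29, limma adjusted p = 0.0859). Sex as a term and centring on the genes tested were added after seeing the data. Counts over all genes moved more. Between leukemic genotypes, 25 genes were called, against 1 with only the compared groups, 14 with the stricter filter, 3 with sex as a term, 2 with the block and 1 to 133 with 1 array left out (133 without leukemic wild-type replicate 3). Between preleukemic genotypes, 123 were called, against 249 with only the compared groups, 60 with array weights, 56 with the block and 44 to 153 with 1 array left out. For the difference of the stage differences 29 became 17 with the block and 11 to 48 with 1 array left out. The cause was not tested. In the wild type, the split of called genes moved from 2924 higher and 3191 lower to 3379 and 2177 with array medians centred and to 2214 and 5741 with the genes tested centred. With repeated quantile normalization it was 4752 and 4005 in Pax5+/-. Small arms (3 and 4 wild-type arrays) and signals near the dim level limit the precision.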
